A study of Mus musculus with 12 samples.

Results

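*Birc2*, *Birc3*, *Ripk1*, *Tradd* and *Traf1* to *Traf6* encode proteins of TNF receptor signaling and their relatives. Some dock on the cytoplasmic tails of the receptors, some are brought in by those that do, and some mainly serve other pathways. These 10 genes were chosen by name, as the TRAF, cIAP and TNF receptor adaptors, from the 45563 gene symbols used in the study, and all 10 were found and tested. Earlier results of these data were known at the choice, so shares of all genes are given below as a description. RNA was sequenced from primary oligodendrocyte precursor cells (OPCs), isolated from the cortices of C57BL/6 pups (WT C57BL/6J in the study's methods) at postnatal days 2 to 5 with anti-PDGFRα beads and cultured for 3 days. WT cells and cells of mice with a germline knockout of TNFR2 (gene *Tnfrsf1b*), present in every cell type, received PBS vehicle (non-stimulated, NS) or a cocktail of TNF, IFNγ and IL1β at 25 ng/mL each for 3 h (stimulated, St). Each of the 4 groups (WT NS, WT St, TNFR2-/- NS and TNFR2-/- St) had 3 libraries, and the libraries held 26886878 to 30335265 read pairs. The WT cultures carried the numbers 2, 3 and 4 and the TNFR2-/- cultures 2, 4 and 5. An NS and a St library with the same number and genotype varied together and are taken to come from 1 culture, whereas a number did not tie a WT to a TNFR2-/- culture. The main test did not pair them. The culture entered as a block only in alternative fits, which are named as such. The labels do not say whether the cultures came from separate litters, so p-values speak for these cultures only. For comparisons between genotypes too, the main test takes both libraries of a culture as independent when it estimates the spread. The genotype p-values are therefore not a plain measure of the spread between cultures.

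TNF receptor 1 carries a death domain that recruits TRADD and the kinase RIPK1, and these bring in TRAF2 with the ubiquitin ligases cIAP1 (*Birc2*) and cIAP2 (*Birc3*). The cIAPs build ubiquitin chains on RIPK1, on which the kinases that switch on canonical NF-κB assemble. TNFR2, which has no death domain, binds TRAF2 directly, and with it TRAF1, TRAF3 and the cIAPs. In resting cells a complex of TRAF2, TRAF3 and cIAPs has the kinase NIK degraded, and loss of that complex opens the non-canonical NF-κB pathway. TRAF6 serves the IL1 receptor and the Toll-like receptors, TRAF5 overlaps with TRAF2 in function, and TRAF4 differs from the other family members in serving mostly developmental and polarity pathways.

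The OPC markers *Pdgfra*, *Cspg4*, *Olig1*, *Olig2*, *Sox10*, *Ptprz1* and *Gpr17* summed to 6500 to 9216 reads per 1000000 read pairs (RPM) in the 12 libraries. The 9 microglial markers summed to 5.77 to 12.6 RPM. Of these, *Aif1* and *Cx3cr1* had 0 to 2 reads in any library, while *P2ry12* had 16 to 46 and *Cd68* 126 to 347. The 7 astrocyte markers summed to 924 to 1137 RPM in WT and 1407 to 2680 in TNFR2-/- libraries. Culture 5 of TNFR2-/- stood apart: it had 10491 (NS) and 10010 (St) reads of the astrocyte filament *Gfap*, against 251 to 1926 in the other 10 libraries. The deleted gene itself did not read as lost. The WT libraries held 12 to 24 (NS) and 61 to 145 (St) reads of *Tnfrsf1b*, while those labelled TNFR2-/- held 213 to 346 (NS) and 282 to 356 (St). Which exons these reads covered was not analysed here, so they do not check the deletion, and TNFR2-/- below stands for the libraries labelled so.

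To rank the genes, RPM were divided by the kb of annotated exon (GENCODE), since the deposited FPKM of different genes are not on a common length scale. In WT NS cells *Traf4* was the most abundant, at 67.0 ± 8.28 (SD, n = 3), followed by *Traf3* at 15.4 ± 0.621 and *Traf6* at 6.88 ± 0.242. *Birc2* (3.06), *Traf2* (2.4), *Tradd* (1.74), *Ripk1* (1.32) and *Traf5* (1.12) formed a middle range, and *Birc3* (0.111) and *Traf1* (0.0482) were at the floor, with 8 to 22 and 11 to 13 reads per library. No neighbors in this order overlapped in their range over the 3 WT NS libraries. In TNFR2-/- NS cells the order was the same, but *Birc2* overlapped with *Traf2*, *Traf2* with *Tradd* and *Ripk1* with *Traf5*. After stimulation *Birc3* reached 3.13 in WT and 3.64 in TNFR2-/- cells and stood above *Tradd* and *Traf5*. *Ripk1* moved past *Tradd* as well, to 5.98 and 5.43. In WT St cells *Traf2* and *Birc3* overlapped, and in TNFR2-/- St cells the overlapping neighbors were *Traf3* and *Birc2*, *Birc2* and *Traf6*, and *Traf2* and *Ripk1*.

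**Figure D1:**
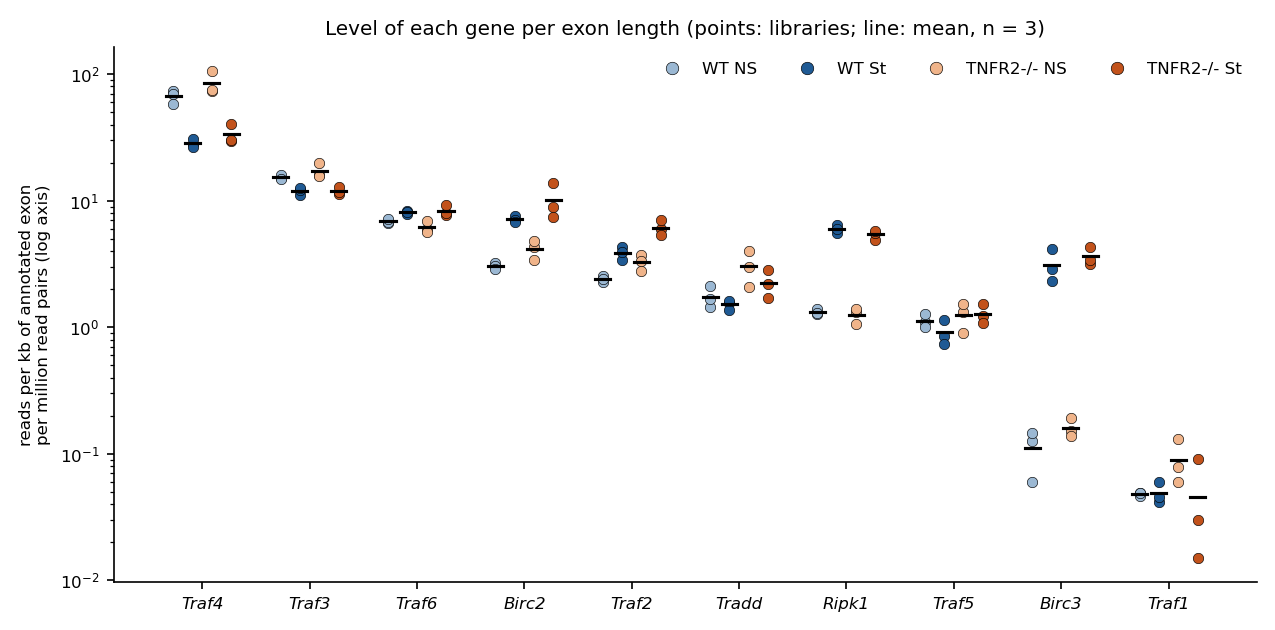
RPM per kb of annotated exon (log axis) for the 10 genes, ordered by their mean in WT NS; points are libraries, lines are means of 3, and colors are the 4 groups. *Birc3* climbs from a mean of 0.111 to 3.13 in WT, *Traf4* stays highest in all 4 groups, and *Traf1* stays near the floor.

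*Birc2* and *Birc3* lie next to each other on chromosome 9, with 11634 bases between the annotated genes. *Birc2* (ENSMUSG00000057367) spans chr9:7818227-7837064 and *Birc3* (ENSMUSG00000032000) chr9:7848699-7873186, both on the minus strand of GRCm38. The 250 bases before each annotated RefSeq start were searched on both strands for the κB consensus and for the ISRE core GAAANNGAAA. For 9 of the 10 genes, 11 such windows were found; *Tradd* had no entry. A κB match was in 1 of the 11 windows, against 7.25% of 32851 windows of all genes, and an ISRE in 0 (2.98% of all). The κB match was in *Traf3*, which fell after stimulation, and ends right before its start. A few stretches outside annotated exons are shown 5′ to 3′ (GRCm38.p6, RefSeq): those of the genes with the largest rise (*Birc3*) and the largest fall (*Traf4*), and that with the match (*Traf3*). Capitals mark the match.
Birc3, chr9:7873187-7873420, minus strand: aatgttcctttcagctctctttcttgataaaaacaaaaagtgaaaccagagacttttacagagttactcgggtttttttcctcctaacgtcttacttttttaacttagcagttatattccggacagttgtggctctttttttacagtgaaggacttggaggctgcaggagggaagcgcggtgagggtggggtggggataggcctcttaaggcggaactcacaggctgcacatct
Traf3, chr12:111166120-111166369, plus strand: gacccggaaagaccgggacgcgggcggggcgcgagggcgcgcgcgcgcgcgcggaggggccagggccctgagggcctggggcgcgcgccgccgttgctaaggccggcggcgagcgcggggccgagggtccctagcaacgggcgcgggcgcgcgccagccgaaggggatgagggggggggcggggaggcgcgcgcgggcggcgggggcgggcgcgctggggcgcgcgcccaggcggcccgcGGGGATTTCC
Traf4, chr11:78165590-78165800, minus strand: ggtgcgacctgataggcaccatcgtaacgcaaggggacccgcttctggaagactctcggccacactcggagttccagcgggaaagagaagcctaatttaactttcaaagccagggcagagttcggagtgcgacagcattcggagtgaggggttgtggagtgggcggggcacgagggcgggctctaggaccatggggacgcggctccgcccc
In base composition the *Traf3* window, at 85.2% G and C, was the richest of the 11 and that of *Birc3*, at 43.6%, the poorest, while the median over all genes was 52.4%.

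Stimulation moved most of the 10 genes, and in the same directions in both genotypes. *Birc3*, *Ripk1*, *Birc2* and *Traf2* rose and *Traf4* and *Traf3* fell in WT and in TNFR2-/- cells, *Traf6* rose in TNFR2-/- cells, and *Traf1*, *Traf5* and *Tradd* were not called in either. A gene is called where limma, run on log2(FPKM + 0.5) of all genes, gave an adjusted p (Benjamini-Hochberg) no higher than 0.05. In WT cells 4 of the 10 genes were called higher and 2 lower, where 7.7% and 8.36% of the 18081 genes tested were (16.1% in all). In TNFR2-/- cells 5 were called higher and 2 lower, against 9.62% and 16.3% of all genes (26.0% in all). The split of all genes depended on scaling: 1392 were called higher and 1511 lower in WT and 1739 and 2956 in TNFR2-/- cells, but 1561 and 1032, and 2130 and 1411, with median-of-ratios factors. The adaptors called here kept their direction under that scaling, and *Traf6* was then also called higher in WT (adjusted p = 0.0439, limma). The median log2 change of the 10 was 0.12 in WT and 0.24 in TNFR2-/- cells, and that of all genes −0.05 and −0.11. The St values of 5 genes lay wholly above the NS values and those of 2 wholly below in each genotype, as did 13.7% and 24.0% of all genes in WT and 12.7% and 24.7% in TNFR2-/- cells. With a change of 1.5-fold or more and a mean of 1 FPKM or more also required, 5 of the 10 were called in either genotype, against 7.53% of all genes in WT and 10.1% in TNFR2-/- cells. With the culture as a block, 7 were called in WT and 9 in TNFR2-/- cells, but 31.6% and 45.1% of all genes were then called too. The summed OPC markers were lower in St libraries, at 6500 to 7445 against 7910 to 9216 RPM in WT and 7090 to 7731 against 8206 to 8889 in TNFR2-/- cells. By marker, 1 of the 7 was called higher and 3 lower in WT, and 0 and 4 in TNFR2-/- cells. *Sox10* in WT had 5188 to 6390 (NS) and 7904 to 10755 (St) reads. *Ptprz1* in TNFR2-/- libraries had 115226 to 129192 and then 129922 to 138599 reads. Of 7 neuronal markers, 1 was called higher and 2 lower in WT and 1 and 1 in TNFR2-/- cells. Reads of *Tubb3* numbered 1190 to 1618 (NS) and 11535 to 12341 (St) in WT, and 1155 to 2146 (NS) and 12544 to 14263 (St) in TNFR2-/- libraries, while *Snap25* in WT had 876 to 1557 and then 500 to 719 reads. The microglial sum was 5.77 to 7.97 (NS) and 10.1 to 12.6 RPM (St) in TNFR2-/- libraries. In WT it was 8.16 to 9.54 and 8.37 to 9.69 RPM. Of the 2 microglial markers tested, 1 was called higher in TNFR2-/- cells and 0 in WT. In bulk RNA, fewer cells of a type and less RNA per cell cannot be told apart, and the part of any list in the changes was not tested.

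**Figure D2:**
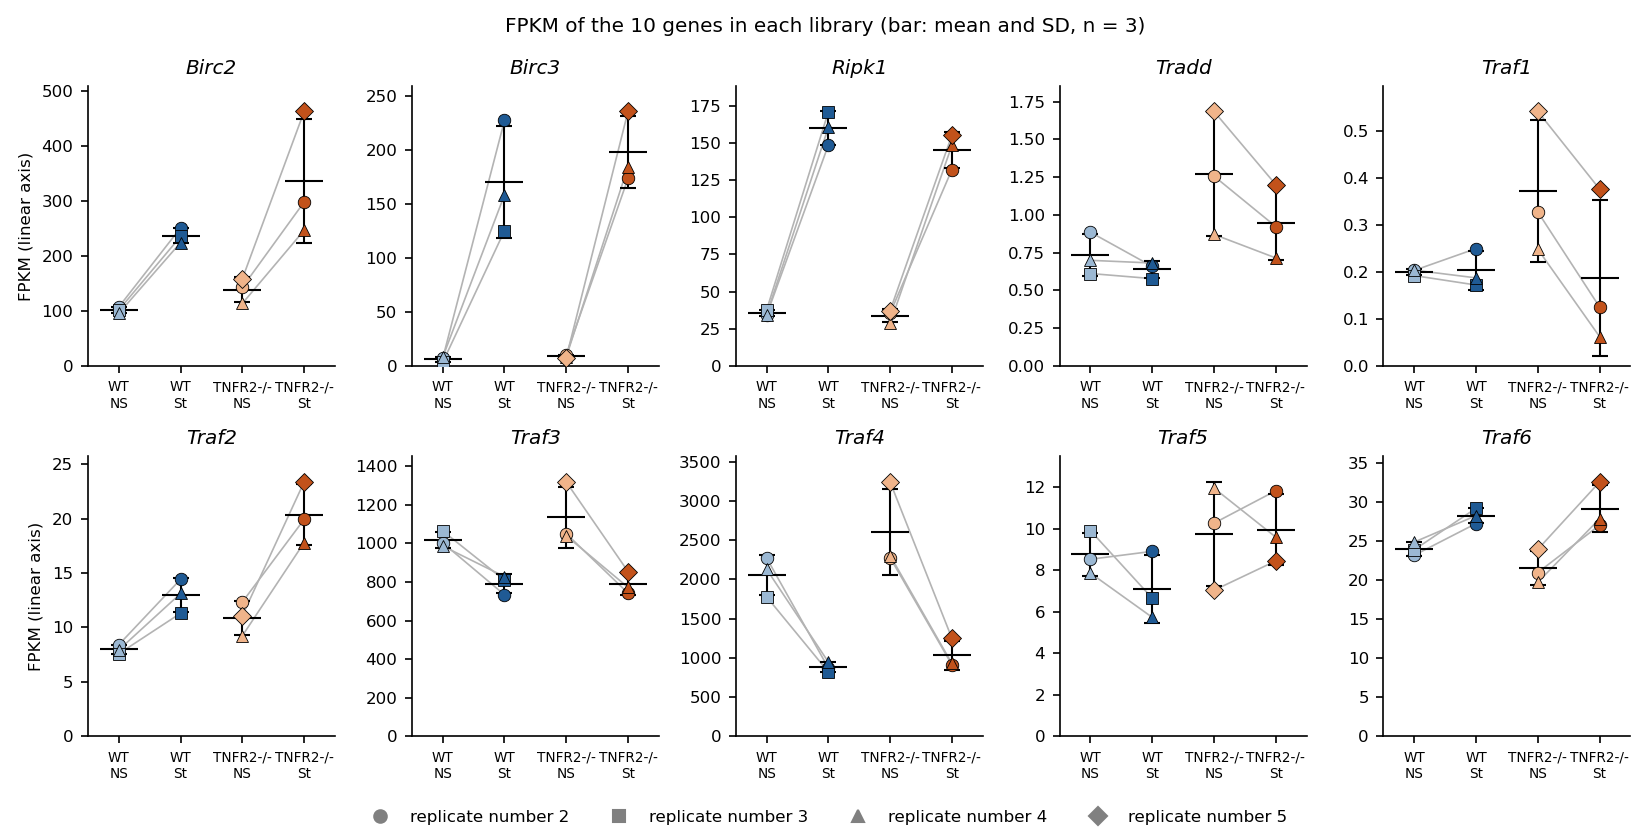
Deposited FPKM of the 10 genes in each of the 12 libraries, on linear axes that start at 0; gray lines join the NS and St libraries of a culture, symbols give its number, and bars are the mean and SD of 3. All 6 cultures rise for *Birc2*, *Birc3*, *Ripk1*, *Traf2* and *Traf6* and fall for *Traf3* and *Traf4*, and culture 5 of TNFR2-/- is the highest of its group in both conditions for *Birc2*, *Ripk1*, *Tradd*, *Traf1*, *Traf3*, *Traf4* and *Traf6*.

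The ubiquitin ligases were called higher in both genotypes. *Birc3*, which encodes cIAP2, had 6.88, 3.23 and 7.98 FPKM in the WT NS libraries of cultures 2, 3 and 4 and 228, 125 and 159 FPKM in the St libraries. In TNFR2-/- cultures 2, 4 and 5 it had 10.5, 8.26 and 7.52 FPKM without and 174, 185 and 236 FPKM with stimulation. Every St library was thus far above every NS library, and the genotypes overlapped. The mean rose 28.3-fold in WT (log2 change 4.75 ± 0.30 (SE), adjusted p = 1.51e-06, limma) and 22.6-fold in TNFR2-/- cells (4.42 ± 0.30, adjusted p = 2.23e-06, limma). *Birc3* rested on 8 to 29 reads in NS and 346 to 630 in St libraries, so its fold carries the counting error of the NS libraries, and by culture it ran from 16.6 to 38.7.

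*Birc2*, which encodes cIAP1, was far more abundant before stimulation and rose less. It had 107, 102 and 95.5 FPKM in WT NS and 251, 235 and 224 FPKM in WT St libraries. The TNFR2-/- cultures had 143, 113 and 158 FPKM, and 298, 247 and 463 FPKM after stimulation. The groups did not overlap within a genotype, and the St library of TNFR2-/- culture 5 was the highest of all 12. The mean rose 2.34-fold in WT (log2 change 1.22 ± 0.20 (SE), adjusted p = 0.00159, limma) and 2.43-fold in TNFR2-/- cells (1.24 ± 0.20, adjusted p = 0.00106, limma). Without culture 5 the TNFR2-/- change was 1.09 (adjusted p = 0.000492, limma). Per exon length, *Birc3* came to 0.0194 to 0.0509 of *Birc2* in WT NS and 0.324 to 0.553 in WT St libraries, and to 0.0290 to 0.0447 and 0.311 to 0.457 in TNFR2-/- libraries. The ratio within a library was thus higher in every St than in every NS library, and *Birc2* remained the more abundant of the pair in all 12. Of the 100-base sequences in their transcripts, 1.76% of *Birc3* and 0.330% of *Birc2* are shared, with each other or with *Gm7019*.

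Of the death domain adaptors, *Ripk1* rose and *Tradd* did not pass the test. *Ripk1* (ENSMUSG00000021408, chr13:34002363-34037147, plus strand) encodes the kinase that the cIAPs ubiquitinate and that can also drive necroptosis. It had 34.2, 37.6 and 34.5 FPKM in WT NS and 149, 171 and 161 FPKM in WT St libraries. In TNFR2-/- libraries it had 35.5, 28.6 and 37.2 FPKM, and 132, 148 and 155 FPKM after stimulation. The replicates were tight, the NS and St groups were far apart, and the genotypes overlapped in both conditions. The mean rose 4.52-fold in WT (log2 change 2.16 ± 0.10 (SE), adjusted p = 1.55e-07, limma) and 4.30-fold in TNFR2-/- cells (2.10 ± 0.10, adjusted p = 1.70e-07, limma). Exons of *Ripk1* overlap those of *Gm17084* and *Serpinb6a* over 9.01% of their bases, where the deposited values may not separate the genes. *Tradd* (ENSMUSG00000031887, chr8:105258286-105264609, minus strand) encodes the adaptor that TNFR1 binds first. It had 0.885, 0.611 and 0.699 FPKM in WT NS and 0.659, 0.578 and 0.681 FPKM in WT St libraries. The TNFR2-/- values were 1.26, 0.870 and 1.68 FPKM, and 0.922, 0.715 and 1.20 FPKM after stimulation. All 6 cultures were lower after stimulation, by ratios of 0.712 to 0.975, while the groups overlapped. The log2 change was −0.11 in WT (adjusted p = 0.776, limma) and −0.28 in TNFR2-/- cells (adjusted p = 0.286, limma, and 0.0473 with the culture as a block). These are changes of log2(FPKM + 0.5), which are shrunken for a gene of so low an FPKM. By voom on the recovered reads they were −0.19 (adjusted p = 0.749) in WT and −0.41 (adjusted p = 0.248) in TNFR2-/- cells.

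Among the TRAFs, *Traf2* rose in both genotypes. This gene (ENSMUSG00000026942, chr2:25517982-25546940, minus strand) encodes the adaptor shared by TNFR1 and TNFR2, and the one that carries the cIAPs. It had 8.42, 7.59 and 7.94 FPKM in WT NS and 14.4, 11.3 and 13.1 FPKM in WT St libraries. In TNFR2-/- cells it had 12.3, 9.24 and 11.1 FPKM, and 19.9, 17.8 and 23.4 FPKM after stimulation. No St library overlapped with an NS library of its genotype. The mean rose 1.62-fold in WT (log2 change 0.66 ± 0.13 (SE), adjusted p = 0.00606, limma) and 1.87-fold in TNFR2-/- cells (0.87 ± 0.13, adjusted p = 0.000776, limma). 

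*Traf3*, the partner through which TRAF2 and the cIAPs reach NIK, moved the other way (ENSMUSG00000021277, chr12:111166370-111267153, plus strand). It had 1003, 1065 and 987 FPKM in WT NS and 734, 810 and 828 FPKM in WT St libraries. The TNFR2-/- cultures had 1051, 1040 and 1319 FPKM, and 743, 773 and 855 FPKM after stimulation. The St ranges of the genotypes overlapped, and neither overlapped with its NS libraries. The St mean was 0.776 of the NS mean in WT (log2 change −0.37 ± 0.09 (SE), adjusted p = 0.0235, limma) and 0.695 in TNFR2-/- cells (−0.52 ± 0.09, adjusted p = 0.00256, limma). The WT call was lost without WT NS replicate 2 (adjusted p = 0.0600, limma), 3 (0.0847) or 4 (0.0505), and without WT St replicate 2 (0.0928) or 3 (0.0513). With the culture as a block it was kept. *Traf2* per exon length was 0.142 to 0.167 of *Traf3* in WT NS and 0.278 to 0.392 in WT St libraries, and went from 0.167 to 0.234 up to 0.459 to 0.545 in TNFR2-/- libraries. The *Traf2* to *Traf3* ratio was therefore higher in every St library than in every NS library of either genotype.

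*Traf4* (ENSMUSG00000017386, chr11:78158499-78165589, minus strand) fell the most. It had 2273, 1778 and 2130 FPKM in WT NS and 871, 820 and 947 FPKM in WT St libraries. In TNFR2-/- cells it had 2278, 2305 and 3243 FPKM, and 913, 928 and 1251 FPKM after stimulation. The NS library of culture 5 was the highest, and no St library reached an NS library of either genotype. The St mean was 0.427 of the NS mean in WT (log2 change −1.22 ± 0.16 (SE), adjusted p = 0.000411, limma) and 0.395 in TNFR2-/- cells (−1.33 ± 0.16, adjusted p = 0.000169, limma), and by culture the ratio ran from 0.383 to 0.461.

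*Traf6* (ENSMUSG00000027164, chr2:101678429-101701669, plus strand), the adaptor of the IL1 receptor, changed by less. It had 23.2, 23.9 and 24.9 FPKM in WT NS and 27.3, 29.3 and 28.3 FPKM in WT St libraries. The TNFR2-/- values were 21.0, 19.8 and 24.0 FPKM, and 27.1, 27.9 and 32.6 FPKM after stimulation. The St libraries lay above the NS libraries in both genotypes. In TNFR2-/- cells the mean rose 1.35-fold (log2 change 0.43 ± 0.09 (SE), adjusted p = 0.00538, limma, and 0.0531 in a fit of these 6 libraries alone). In WT cells the ratio was 1.18 and the change of 0.23 was not called (adjusted p = 0.115, limma), but it was with the culture as a block (adjusted p = 0.00814, limma). Without culture 5 of TNFR2-/- the same WT change had an adjusted p of 0.0184 in limma.

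*Traf5* (ENSMUSG00000026637, chr1:191997205-192092559, minus strand) and *Traf1* (ENSMUSG00000026875, chr2:34941750-34961772, minus strand) were not called. *Traf5* had 8.52, 9.90 and 7.86 FPKM in WT NS, 8.91, 6.65 and 5.73 FPKM in WT St, 10.3, 12 and 7.03 FPKM in TNFR2-/- NS and 11.8, 9.59 and 8.44 FPKM in TNFR2-/- St libraries. Cultures of both genotypes went in both directions, with ratios from 0.672 to 1.20. The log2 change was −0.30 in WT (95% interval −0.76 to 0.16) and 0.05 in TNFR2-/- cells (−0.41 to 0.51). *Traf1*, which in many cells is itself induced by NF-κB, was barely detected in WT cells, with 11 to 13 (NS) and 11 to 16 (St) reads per library and a log2 change of 0.01 (95% interval −0.37 to 0.38). In TNFR2-/- libraries 21, 16 and 35 reads in NS stood against 8, 4 and 23 reads in St. All 3 of these cultures had fewer reads after stimulation, while the groups overlapped. On log2(FPKM + 0.5), which shrinks changes of so low a gene, the change was −0.36 (adjusted p = 0.151, limma, 0.0222 with the culture as a block and 0.0224 without TNFR2-/- St replicate 5). By voom on the recovered reads it was −1.26 (95% interval −2.32 to −0.19, adjusted p = 0.0778).

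**Figure D3:**
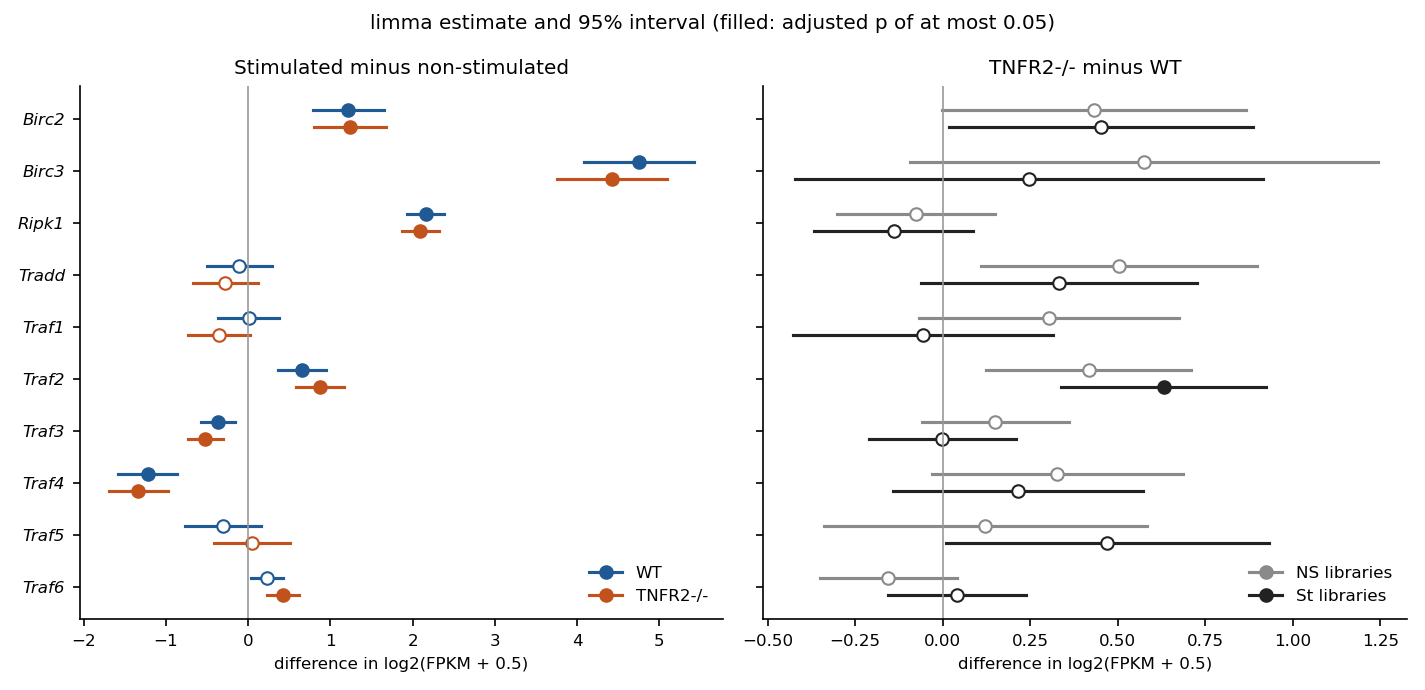
Differences in log2(FPKM + 0.5) from limma with 95% intervals, for stimulation in each genotype (left) and for TNFR2-/- against WT in each condition (right); filled circles have an adjusted p of at most 0.05. The stimulation changes of the genotypes lie side by side, from 4.75 for *Birc3* to −1.33 for *Traf4*, and of the genotype differences *Traf2* in St libraries (0.63) is filled.

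Whether TNFR2 alters the response itself was asked with the interaction of genotype and stimulation. Of the 10 genes, 0 were called in limma, where 1 of the 18081 genes tested was (0.00553%). An unadjusted p under 0.05 in limma was found for 0 of the 10 and for 1437 of all genes. By voom 0 of the 10 were called, but so were 0 of all 18080 genes. With the culture as a block 0 of the 10 and 1 of all genes were called. In that fit *Traf6* (0.20, 95% interval 0.05 to 0.34) and *Traf1* (−0.36, −0.68 to −0.04) had an unadjusted p under 0.05 (adjusted p = 0.158 and 0.198, limma). How many of all genes had such a p there was not counted. The intervals that follow are from the fit without the block. The TNFR2-/- minus WT difference in the log2 response was −0.33 for *Birc3* (95% interval −1.27 to 0.62), −0.06 for *Ripk1* (−0.38 to 0.26), 0.02 for *Birc2* (−0.59 to 0.63), 0.21 for *Traf2* (−0.20 to 0.63) and −0.11 for *Traf4* (−0.62 to 0.39). For *Ripk1* and *Traf3* (−0.15, −0.45 to 0.14) the interval left room for a difference of less than 0.5, whereas for *Birc3* it spanned more than 1 on the log2 scale. The block narrowed that of *Birc2* to −0.28 to 0.32 and that of *Birc3* to −1.03 to 0.38.

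Between genotypes at rest, limma called 0 of the 10 genes, where it called 10.9% of all genes (6.11% higher in TNFR2-/-). That share was not stable: the 1964 genes called became 80 without WT NS replicate 3, 96 without replicate 4, 178 without TNFR2-/- NS replicate 5, 597 without replicate 2, and 8 in a fit of the 6 NS libraries alone. In the fit of all libraries 1105 genes were higher and 859 lower, or 824 and 981 with median-of-ratios factors. *Traf2* and *Tradd* had an unadjusted p under 0.05, as did 5452 of the 18081 genes, and voom also called 0. *Traf2* averaged 10.9 FPKM in TNFR2-/- NS against 7.98 in WT NS (log2 difference 0.42 ± 0.13 (SE), adjusted p = 0.0668, limma), and *Tradd* 1.27 against 0.732 (0.50 ± 0.18, adjusted p = 0.0901, limma). The pseudocount shrinks the difference of *Tradd*, which by voom was 0.75 (adjusted p = 0.0733). Without TNFR2-/- NS replicate 4 *Traf2* and *Tradd* passed, with an adjusted p of 0.0332 and 0.0314 in limma. *Birc2* averaged 138 against 101 FPKM (0.43 ± 0.20, adjusted p = 0.168, limma, and 0.0454 without TNFR2-/- St replicate 5). *Traf1*, *Traf2*, *Traf4* and *Birc2* were higher in every TNFR2-/- NS than in every WT NS library, 4 of 10 genes where 19.9% of all genes did the same. With the added limits on fold change and level, 2.9% of all genes and 0 of the 10 were called.

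After stimulation *Traf2* was the only gene of the 10 called between genotypes, against 5.45% of all genes (2.7% higher in TNFR2-/-). The 985 genes behind this share became 61 without WT St replicate 4, 78 without replicate 3, 133 without TNFR2-/- St replicate 5, 244 without replicate 2, and 67 in the fit of the 6 St libraries. Of all genes 488 were higher and 497 lower, or 623 and 304 with median-of-ratios factors. Its libraries labelled TNFR2-/- had 19.9, 17.8 and 23.4 FPKM and the WT ones 14.4, 11.3 and 13.1. The groups did not overlap, and the TNFR2-/- mean was 1.57 times that of WT (log2 difference 0.63 ± 0.13 (SE), adjusted p = 0.0304, limma). This call did not hold without WT NS replicate 4 (adjusted p = 0.0508, limma), WT St replicate 3 (0.119) or 4 (0.0958) or TNFR2-/- St replicate 2 (0.0702) or 5 (0.104). In a fit of the 6 St libraries alone the adjusted p was 0.0825 in limma. Without both libraries of culture 5 the difference was 0.53 (adjusted p = 0.0798, limma). The astrocyte marker sums ran alongside, at 1498 to 2650 RPM in TNFR2-/- St and 924 to 1037 in WT St libraries, with none of the 7 markers at 0 in any library and 1 of the 7 called higher. Of the 7 OPC markers 1 was called lower and 0 higher. *Pdgfra* had 8000 to 11932 reads in TNFR2-/- St and 13735 to 18109 in WT St libraries. The summed OPC markers overlapped, at 7090 to 7731 and 6500 to 7445 RPM. The part of either list in the *Traf2* difference was not tested. *Tradd* was also higher in every TNFR2-/- St than in every WT St library, so that 2 of the 10 genes were, against 15.4% of all genes. *Birc2* (log2 difference 0.45, adjusted p = 0.173, limma) and *Traf5* (0.47, adjusted p = 0.181, limma) had an unadjusted p under 0.05, as did *Traf2* and 4820 genes in all. *Traf2* remained called with the limits on fold change and level, as were 1.8% of all genes.

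The genes around these adaptors were counted in 8 lists of 96 other genes, of which 86 were tested. In WT cells 36 rose and 7 fell, and in TNFR2-/- cells 38 rose and 13 fell, against the 16.1% and 26.0% of all genes called in either direction. The lists were chosen with earlier results of these data known, so these counts describe the lists and do not test them. Of the NF-κB subunits and IκB proteins, 10 of 10 rose in each genotype. Among them *Bcl3*, a nuclear IκB protein, changed by 5.93 (log2) in WT and 5.44 in TNFR2-/- cells. *Nfkbia*, which encodes IκBα, changed by 2.70 and 3.27, and its relative *Nfkbie* by 2.79 and 2.59. Of 12 deubiquitinases and brakes 6 rose in both genotypes, and *Otulin* fell in TNFR2-/- cells (−0.24). *Tnfaip3*, which encodes the ubiquitin-editing enzyme A20, went from 24.7 to 407 FPKM in WT and from 27.5 to 627 FPKM in TNFR2-/- cells (log2 changes 4.02 and 4.43). Its partner *Tnip1* changed by 2.06 and 2.10. *Tnip3* was listed at 0 in WT NS and at a mean of 0.833 FPKM in WT St libraries.

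In the TNFR1 signaling complex 6 of 16 genes rose and 1 fell in WT cells, and 5 rose and 2 fell in TNFR2-/- cells. *Tnfrsf1a*, the receptor itself, changed by 1.38 and 1.06 on the log2 scale. *Rnf31*, the catalytic subunit of the linear ubiquitin ligase, changed by 1.68 and 1.42, and *Cflar*, the inhibitor of caspase-8, by 0.79 and 1.15. The receptors that bind TRAFs had 13 of 16 genes tested, with 4 higher and 1 lower in WT and 5 higher and 1 lower in TNFR2-/- cells. *Tnfrsf1b* is in this list and was called in WT cells. *Cd40*, which signals through TRAF2, TRAF3 and TRAF6, went from a mean of 0.0486 to 4.43 FPKM in WT and from 0.0723 to 5.90 FPKM in TNFR2-/- cells. The receptor genes *Eda2r* (log2 changes 0.82 and 1.22) and *Tnfrsf18* (0.84 and 0.72) rose as well.

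On the IL1 receptor side of TRAF6, 5 of 12 genes rose and 2 fell in WT cells, and 5 rose and 4 fell in TNFR2-/- cells. *Myd88*, the adaptor that brings IRAK kinases to the receptor, changed by 2.42 and 2.57, *Irak2* by 1.92 and 2.63, and *Tifa*, a TRAF6-binding protein, by 3.21 and 3.70. Of 14 kinases and partners of the TRAFs 3 rose and 2 fell in WT and 4 rose and 4 fell in TNFR2-/- cells. *Map3k14*, which encodes NIK, changed by 1.12 and 1.54, *Tbk1* by 0.66 and 0.79, and *Trafd1* by 1.79 and 1.81. *Ripk2*, the kinase of the NOD receptors, changed by 4.52 and 4.88, and *Mlkl*, the executor of necroptosis, by 2.99 and 2.92. These were the 2 of 4 genes called in both genotypes among other RIP kinases and necroptosis genes, and *Zbp1*, at a mean of 0.412 FPKM in TNFR2-/- St libraries, was also called in TNFR2-/- cells (0.82). Of 5 other IAPs and IAP antagonists tested, 1 was called in each genotype. *Xiap*, a caspase inhibitor, fell by 0.26 on the log2 scale in WT and *Diablo*, the antagonist of the IAPs, fell by 0.19 in TNFR2-/- cells.

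**Figure D4:**
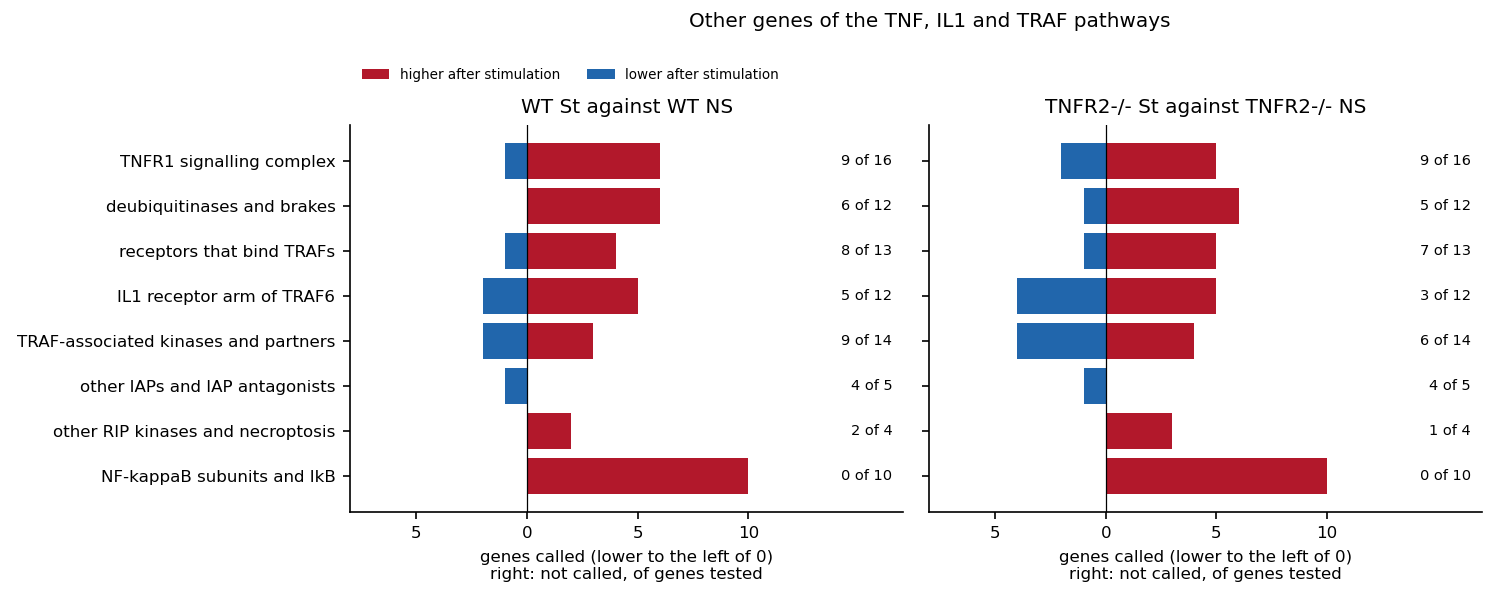
Number of genes called after stimulation in 8 lists of pathway genes other than the 10 adaptors, in WT (left) and TNFR2-/- cells (right); red bars are genes called higher, blue bars to the left of 0 genes called lower, and the numbers at the right give genes not called of those tested. The NF-κB list has 10 of 10 higher in each genotype, while the other IAPs have a single gene called in each, to the left of 0.

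Between genotypes 10 of the 86 genes were higher and 10 lower at rest, and 4 higher and 4 lower after stimulation, against 10.9% and 5.45% of all genes called in either direction. *Tnfrsf1b* is one of the higher genes in both. *Il1r1*, the receptor for IL1, was higher in TNFR2-/- cells in both conditions (log2 differences 1.09 and 1.21) and so was *Tab1*, an activator of the kinase TAK1 (0.81 and 0.56). *Siah2*, a ubiquitin ligase for TRAF2 (−0.72 and −0.76), and *Peli1*, a ubiquitin ligase of the IL1 receptor pathway (−0.50 and −0.50), were lower in both. *Nfkbia* was higher after stimulation (0.46), and *Rel*, an NF-κB subunit, lower at rest (−0.74). The astrocyte marker sums given above also differed between the genotypes, and the averages of other lists differed as well. Whether these genes followed any list from library to library was not examined. Mural and fibroblast markers averaged 529 RPM in WT NS and 303 in TNFR2-/- NS libraries, and 554 and 252 in St libraries. Mature oligodendrocyte markers averaged 746 and 971 at rest and 782 and 819 after stimulation. Neuronal markers averaged 858 and 729, and then 1062 and 1092. In these other lists the genotypes overlapped in range, except for the neuronal sum at rest. The part of any list in the differences was not tested.

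The genes that tracked the called adaptors best over the 12 libraries, by Pearson correlation of log2(FPKM + 0.5), were named as a description, since all of them move with stimulation in the same libraries. *Birc3* was closest to *Tnfaip2* (r = 0.996), *Bcl3* (0.996) and *Casp4* (0.996), and *Ripk1* to *Zfp945* (0.997), *Mob3c* (0.995) and *Jak1* (0.995). *Birc2* was closest to *Zfp160* (0.993), *Lamp2* (0.990) and *Trim12c* (0.986), and *Traf2* to *Tlr3* (0.989), *Nedd4l* (0.980) and *Deptor* (0.978). *Traf4* was closest to *Kcnh2* (0.995), *Sox8* (0.988) and *Prr12* (0.987), and *Traf3* to *Rin2* (0.984), *Hr* (0.980) and *Crtc1* (0.979).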

How the data were processed

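RNA of the 12 libraries was sequenced as read pairs, which the authors trimmed with Trim Galore, aligned to GRCm38 with STAR and tested with edgeR (tools per the submitters' processing notes; methods and labels name different sequencing platforms). The values deposited by the authors are FPKM per gene symbol, 1 table for NS and 1 for St libraries. Of 45792 entries, 229 sharing a symbol were left out. Whole reads were recovered from the FPKM by finding each library's total and each gene's divisor, to within 0.005 reads for 26636 of 26636 genes above 0 in at least 2 libraries. These divisors were not annotated exon lengths (92 bases for *Birc3*, against 5009 annotated), so FPKM were used between libraries and RPM per kb of GENCODE M21 exon between genes.

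Genes averaging 0.1 FPKM or more over the 12 libraries were fitted as log2(FPKM + 0.5) in limma 3.58.1 (R 4.3.3), with 4 group means over 12 libraries, a mean-dependent prior and Benjamini-Hochberg adjustment over 18081 genes. This main fit had no block for the culture, so its stimulation p-values are not paired. Its genotype p-values rest on a spread that takes both libraries of a culture as independent. In counts simulated for WT St against WT NS over 18080 genes, all 100 genes given a 4-fold change and 78 of 100 given a 2-fold change were recovered. The simulation gave all genes the same dispersion, had no shared cultures and changed only genes of higher read counts. It therefore does not give the power for genes of few reads, such as *Traf1*. Replicate numbers were checked for pairing by correlating deviations from group means over 13554 genes. Same-numbered NS and St libraries of a genotype correlated at 0.338 to 0.649 (6 pairs) and others at −0.455 to 0.088, so the number marks a shared culture. Across genotypes same numbers gave −0.0553 to 0.204 and other numbers −0.21 to 0.177.

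The 10 genes and the lists were chosen with earlier results of these data known. From each list, the text names up to 3 genes with the largest change called in both genotypes, and some called between genotypes, beside the genes of single calls that a count of 1 refers to. Alternatives were other pseudocounts, filters, scalings, fits, weights, blocks, thresholds, voom and each library left out in turn. A fit of log2(RPM + 0.1), RPM being reads per 1000000 read pairs, and a fit without TNFR2-/- culture 5 were chosen after seeing the data. By voom on the recovered reads 3021 genes were called for stimulation in WT, 4860 in TNFR2-/- cells, 2235 between genotypes at rest and 1262 after stimulation, and limma called 2903, 4695, 1964 and 985. Intervals are 95%. Python 3.11.15, numpy 2.4.6, pandas 2.3.3 and matplotlib 3.10.9 were used. Promoter windows were searched for 1 further motif that is not reported here.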

Additional observations from a re-analysis of the deposited data

How the results depend on the processing

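Of the 13 stimulation calls among the adaptors, 10 held in all alternatives run, and no called change reversed; the exceptions were *Traf3* in both genotypes and *Traf6* in TNFR2-/- cells. Between genotypes at rest, where 0 were called, weights for each library gave 3, the replicate block over all libraries 1, and leaving out each library 0 to 2. After stimulation, where 1 was called, the fit of 6 libraries and that without culture 5 gave 0, weights and the replicate block 2, and leaving out each library 0 to 1. The block changed no call other than those given above and *Traf6* at rest (−0.22) and *Traf5* after stimulation (0.65). Some values that were not called changed sign, and the cause was not tested. For stimulation, *Traf1* in WT became −0.040 by quantile normalization and −0.0080 with weights (−0.042 to 0.037 leaving out libraries), and *Traf5* in TNFR2-/- cells −0.054 without culture 5 (−0.16 to 0.20). For TNFR2-/- against WT at rest, leaving out libraries gave −0.035 to 0.33 for *Traf5* and −0.15 to 0.037 for *Ripk1*. After stimulation, *Traf3* became 0.015 with median-of-ratios factors and 0.029 by quantile normalization (−0.060 to 0.042), *Traf6* −0.0053 with weights, −0.027 with the replicate block and −0.040 without culture 5 (−0.040 to 0.092), *Traf4* −0.017 and *Birc3* −0.051 with the replicate block, and *Traf1* ran from −0.24 to 0.076. In the interaction, *Birc2* became −0.11 with weights and −0.13 without culture 5 (−0.24 to 0.22), and leaving out libraries gave −0.26 to 0.055 for *Traf4*, −0.56 to 0.034 for *Birc3* and −0.18 to 0.0096 for *Ripk1*. With a mean of at least 1 FPKM required, *Traf1* and *Tradd* were not tested. Depth limits *Traf1* (4 to 35 reads) and *Birc3* in NS libraries (8 to 29 reads). Over all genes, the replicate block raised the calls for stimulation from 2903 to 5342 in WT and from 4695 to 7754 in TNFR2-/- cells (5719 and 8153 with the culture as a block), and from 1964 to 3128 between genotypes at rest and 985 to 2533 after stimulation, where leaving out culture 5 gave 849 and 307. Weights for each library gave 4721 in WT for stimulation and 3699 and 2178 between genotypes, and no filter on level gave 1149 and 549 between genotypes. Leaving out each library gave 80 to 2607 calls at rest and 61 to 1418 after stimulation, and the fit of 6 libraries 8 and 67 (2752 for stimulation in TNFR2-/- cells).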
